A study of Mus musculus with 6 samples.

Results

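The genes described here are 37 genes of the endoplasmic reticulum (ER) folding machinery, the unfolded protein response and procollagen export, out of 28802 genes in the deposited table. They were chosen by gene symbol, with earlier results of these data known, and each symbol matched 1 row. By role they comprise 16 folding genes, 5 degradation genes, 6 sensors and transcription factors, and 10 genes of entry, export and retrieval. Poly(A)-selected RNA labelled as mouse cranial bone was sequenced with paired reads of 150 bases in 6 libraries. The 3 control libraries are labelled 0 µM metformin. The 3 metformin scaffold libraries are labelled 500 µM metformin in a mineral filler (Met/alpha-CSH/nHA, alpha-hemihydrate calcium sulfate mixed with nano-hydroxyapatite). Metformin is a biguanide used against type 2 diabetes. The labels describe a skull defect of 5 mm, and give no strain, age, sex or time point, nor whether the control received the composite without drug. They also do not say whether the RNA is of tissue or of cultured cells, or whether replicates were separate animals, so the p-values reflect spread between libraries that may be purely technical.

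Bone-forming cells secrete large amounts of type I procollagen. Its chains enter the ER through the Sec61 channel, fold with the help of chaperones and disulfide isomerases, and leave in vesicles coated by COPII. Proteins that fail to fold are drawn back into the cytosol and degraded. When unfolded protein accumulates, the sensors IRE1 (Ern1), ATF6 and PERK start the unfolded protein response, which raises transcription of chaperone genes. IRE1 acts by splicing Xbp1 mRNA and ATF6 by being cut from the membrane. Neither step is measured by a gene's total transcript level.

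Total estimated counts were between 63174927 and 70955139 per library, and every member had at least 276 counts in each library. Osteoblast markers summed to between 7225 and 8253 FPKM (a length-scaled read level) in control and between 8743 and 8913 in scaffold libraries, with 11 of 12 at a mean of at least 1 FPKM. Most single markers were higher in every scaffold library: Ibsp, Sp7, Alpl, Sparc, Bglap, Bglap2, Dmp1 and Phex. Ibsp ran from 1224 to 1328 FPKM in control and from 1996 to 2234 in scaffold. Bglap2 ran from 8.98 to 13.1 FPKM in control and from 29.5 to 45.3 in scaffold. Runx2 was lower in each, at 27.2 to 31.8 and 23.7 to 25.8 FPKM. Col1a1, Col1a2 and Spp1 overlapped, Col1a1 at 2014 to 2466 and 2017 to 2250 FPKM. Chondrocyte markers summed to between 61.3 and 67.2 FPKM in control and between 85.7 and 87.3 in scaffold, with 5 of 10 at 1 FPKM or more. The difference in the sum lay in Col2a1, at 30.2 to 34.4 FPKM in control and 55.4 to 57.8 in scaffold, while Sox9 stood at 25.5 to 27.9 and 22.3 to 25.5 FPKM and Comp at 1.33 to 1.59 and 0.925 to 1.48. Hapln1 was also higher in scaffold, at 1.34 to 1.77 FPKM in control and 2.52 to 2.69 in scaffold libraries. Acan averaged 0.00200 FPKM. Of the genes of plasma and B cells, which also carry a large ER, 2 of 9 reached 1 FPKM (Sdc1 and Pou2af1), and Jchain averaged 0.0211 FPKM. That list summed to between 64.5 and 66.0 FPKM in control and between 59.1 and 62.2 in scaffold, of which Sdc1 averaged 60.3 over all libraries. The osteoclast list summed to between 108 and 120 FPKM and between 125 and 135, nearly all of it Ctsk at a mean of 115, and Acp5 averaged 0.0526. Mmp9 went the other way, at 7.21 to 8.49 FPKM in control and 6.07 to 6.22 in scaffold libraries. The myeloid list had 2 of 10 genes at 1 FPKM or more and summed to between 9.71 and 14.1 FPKM in control and between 11.1 and 13.1 in scaffold. The endothelial, erythroid and muscle lists had no gene at 1 FPKM and summed to at most 1.64 FPKM in any library. The part of these shifts in the results was not tested. In bulk RNA, fewer cells of a type and less RNA per cell cannot be told apart.

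The ER genes ranged from 4.21 to 358 FPKM in mean level and were mostly near-level between the groups. With edgeR's quasi-likelihood test over 17375 genes (Benjamini-Hochberg adjusted p under 0.05), 1 of the 37 members rose, Dnajc10, and 2 fell, Dnajb9 and Dnajc3. That is 8.11% of the members, against 4.31% of all tested genes and 6.61% of the tested genes with a mean of at least 5 FPKM, a level that 36 of the members reached. Over all tested genes 2.85% rose and 1.46% fell. The median log2 fold change of the members was -0.02, beside -0.0045 for all tested genes. DESeq2 called 1 member higher and 5 lower (9.18% of the genes it tested were called), and limma on log2(FPKM + 1) called 1 higher and 2 lower (4.96%). For 32 of the 37 members the 95% interval of the difference lay within 1.3-fold in either direction, and for 35 within 1.5-fold. The exceptions at 1.3-fold were Dnajb9, Dnajc3, Dnajc10, Sdf2l1 and Ern1. In counts scaled to library size, the 3 libraries of one group lay wholly on one side of the other group's for 14 members, 4 higher and 10 lower. That is 37.8% of them beside 24% of all tested genes.

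**Figure D1:**
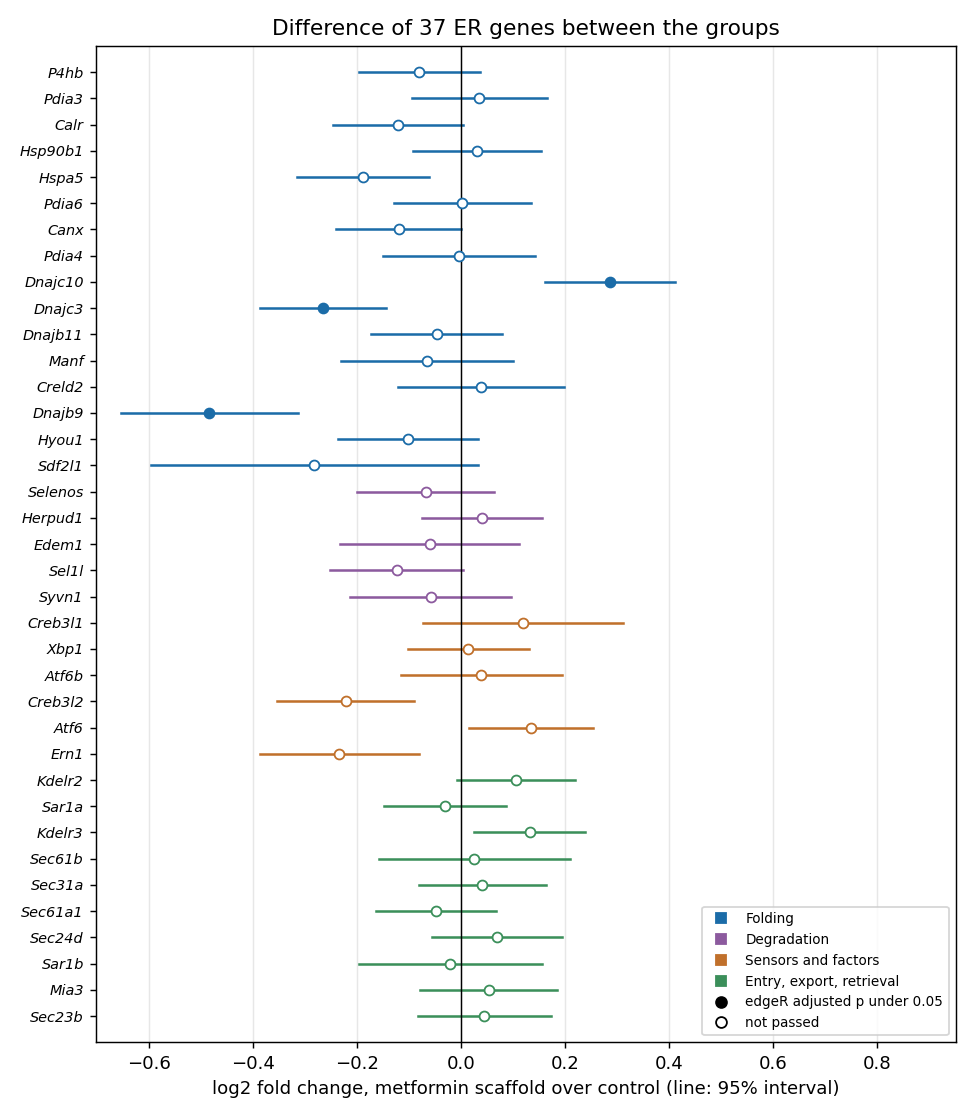
Difference of each of the 37 genes between the groups, as log2 fold change of metformin scaffold over control (x axis) with its 95% interval from edgeR (line), coloured by role. Filled points passed an adjusted p of 0.05: Dnajb9 and Dnajc3 lie left of 0 and Dnajc10 right of it, while the other 34 points are open.

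The levels of the folding genes, compared per length in FPKM as means over all 6 libraries, spanned 4.21 for Sdf2l1 to 358 for P4hb. P4hb encodes protein disulfide isomerase, which is also the β subunit of the collagen prolyl 4-hydroxylase. Next came Pdia3 (208 FPKM), Calr (207) and Hsp90b1 (205), which lay within the spread of their libraries, and then Hspa5 at 151 FPKM. Pdia6 (80.6 FPKM), Canx (79.1) and Pdia4 (77.3) followed closely together. The ER genes that assist Hspa5 were lower, with Dnajc10 at 32.3 FPKM, Dnajc3 at 24.1, Dnajb11 at 16.4, Dnajb9 at 7.79 and Hyou1 at 7.79. Among the sensors and factors Creb3l1 was highest at 55.0 FPKM and Ern1 lowest at 5.37. Added up, the folding genes reached 1536 ± 9.47 FPKM in control and 1439 ± 35.6 in scaffold libraries (mean and SD of 3 in each group, here and below), and all 3 scaffold sums (1399, 1449 and 1468) lay below the control sums (1528, 1546 and 1534). The degradation genes summed to 101 ± 2.41 and 95.1 ± 1.10 FPKM, the sensors and factors to 134.7 ± 5.96 and 134.1 ± 7.88, and the export genes to 454.5 ± 4.85 and 456.1 ± 2.21. These sums carry no test, and FPKM has no TMM scaling. The median log2 fold change over all genes was -0.030 by limma on log2(FPKM + 1), against -0.0045 by edgeR. The gap in the folding genes depends on the scale. Summed as TMM-scaled CPM, with no length weighting, the groups overlapped, at 5704, 5865 and 5809 in control and 5447, 5553 and 5735 in scaffold libraries. The degradation genes stayed narrowly apart as CPM, at 418, 389 and 383 in control and 382, 378 and 378 in scaffold libraries.

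**Figure D2:**
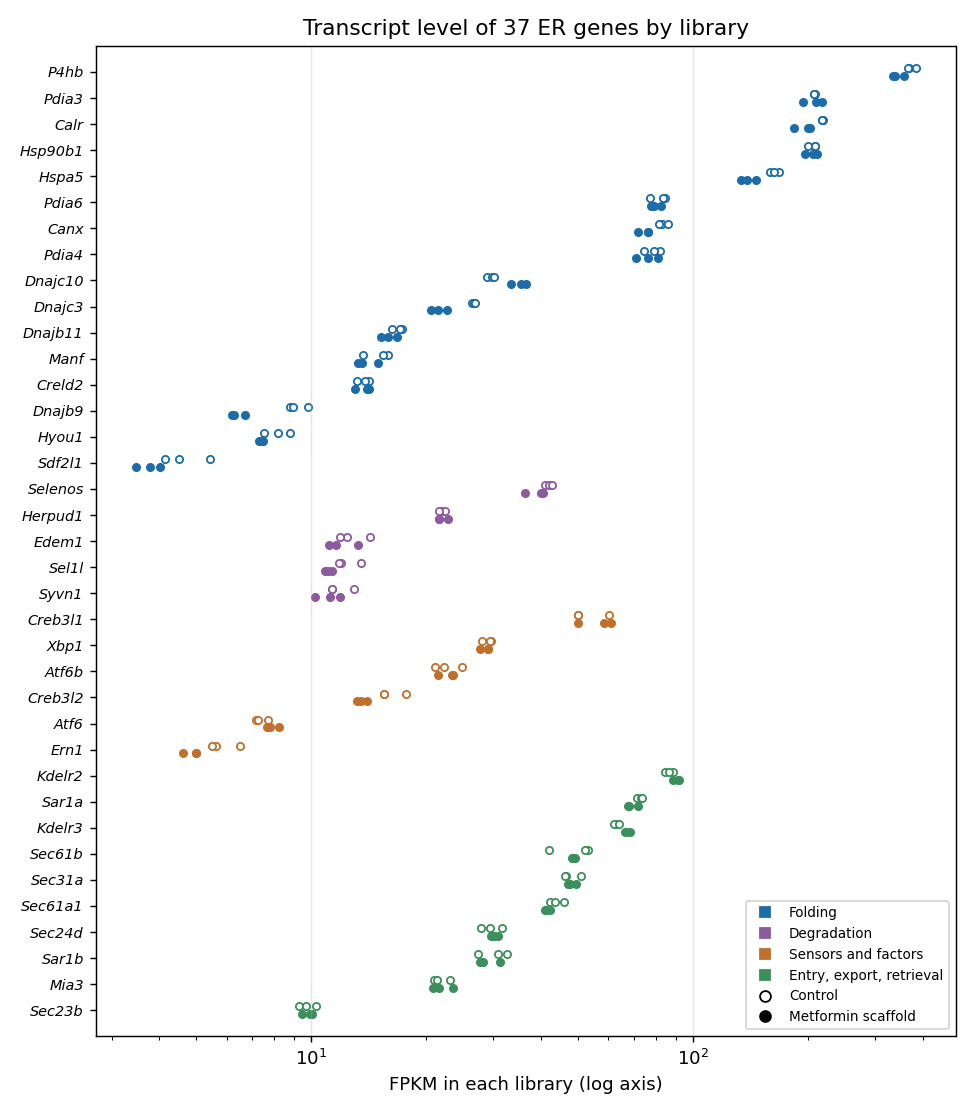
Transcript level of the 37 genes in each library, in FPKM on a log axis, grouped by role and ordered by mean level; open points are control and filled points metformin scaffold libraries. P4hb is the highest at a mean of 358 FPKM and Sdf2l1 the lowest at 4.21, and for most genes the open and filled points sit together.

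An ER stress element, of either of 2 kinds, lay in the promoter of 10 of the 30 genes that could be searched. The genes were listed for roles that include the unfolded protein response, so this share is a description and no independent support. The ER stress element (ERSE) is CCAAT, 9 free bases and CCACG, and is bound by NF-Y and by ATF6 or XBP1. ERSE-II is ATTGG, 1 free base and CCACG. RefSeq promoter sequences (GRCm38.p6, 250 bases before to 50 bases after the transcript start) were matched by symbol for 30 members at the gene's own coordinates. Members were counted as genes, 2 of them with 2 promoters, and the background as promoters. On either strand, ERSE occurred in 8 of the 30 genes and in 0.119% of all 32851 promoters of this length. ERSE-II occurred in 2 of the 30 and in 0.0365% of all. The shorter letters TGACGTGG, the core of the unfolded protein response element, occurred in 2 (Kdelr3 and Sec24d) and in 0.676% of all, and the palindrome TGACGTCA in 0 and in 1.79% of all. No member held more than 1 kind of element. A match describes letters in this window and is no evidence of binding. The windows below hold the matches in capitals, for the chaperones Hspa5, Hsp90b1, Calr and Canx, for Dnajc3, the member with an ERSE that passed the test, and for the 2 genes with ERSE-II.
Hspa5 (chr2:34772015-34772053, + strand): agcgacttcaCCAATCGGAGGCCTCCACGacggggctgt
Hsp90b1 (chr10:86705523-86705666, - strand): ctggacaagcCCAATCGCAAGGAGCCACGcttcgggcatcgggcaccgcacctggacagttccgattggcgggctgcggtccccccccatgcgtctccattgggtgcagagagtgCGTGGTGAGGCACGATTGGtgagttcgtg
Calr (chr8:84847065-84847103, - strand): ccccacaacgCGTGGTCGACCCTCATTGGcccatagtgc
Canx (chr11:50325790-50325828, - strand): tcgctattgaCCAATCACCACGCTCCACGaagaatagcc
Dnajc3 (chr14:118937817-118937855, + strand): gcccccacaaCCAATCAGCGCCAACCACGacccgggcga
Herpud1 (chr8:94386367-94386397, + strand): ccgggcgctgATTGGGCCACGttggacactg
Dnajb11 (chr16:22857842-22857872, + strand): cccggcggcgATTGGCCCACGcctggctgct
Each is read 5′ to 3′ on the strand of its gene, so CGTGG at the left of a capital run is the element on the reverse strand. Hsp90b1 held 2 matches, at -212 to -194 and at -107 to -89 from the start, which do not overlap, and Hspa5 held 1 at -65 to -47. The other ERSE genes were Pdia6, Creld2 and Syvn1.

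Of the 10 genes with an ERSE or ERSE-II, 1 passed the test, Dnajc3, beside 4.31% of all tested genes. Their median log2 fold change was -0.0524, with a range from -0.26 (Dnajc3) to 0.04 (Herpud1), 6 below 0 and 4 above. Hspa5, Calr and Canx had lower scaffold levels, with adjusted p of 0.102, 0.292 and 0.281 by edgeR. In these 3 and in Dnajc3 every scaffold library was below every control. Of all tested genes, 24% had groups apart in either direction. Hsp90b1, Pdia6, Creld2 and Herpud1 had log2 fold changes between 0.0025 and 0.04, with 95% intervals that span 0.

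The 3 members that passed all carry a J domain, the part that in these 3 proteins drives the ATPase of Hspa5. They were grouped by it after the values were seen, so their count among the 4 folding members with a J domain is a description only, beside 4.31% of all tested genes. Dnajb9 (ERdj4; ENSMUSG00000014905, chromosome 12, 44205559 to 44210326, GRCm38) hands misfolded proteins to degradation and holds IRE1 inactive, and 14 bases of its exons lie opposite the microRNA gene Mir5627. It stood at 24.5, 25.3 and 27.8 CPM (a read count scaled to library size with TMM factors) in control replicates 1 to 3 and at 17.9, 18.1 and 19.5 CPM in scaffold replicates 1 to 3. All 3 scaffold libraries were below all 3 controls. Its log2 fold change was -0.48 ± 0.08 (SE; edgeR adjusted p = 0.00487), or 0.715-fold with a 95% interval from 0.636 to 0.805. It passed under each of 14 alternative settings, with adjusted p from 1.74e-05 to 0.0321.

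Dnajc3 (p58IPK; ENSMUSG00000022136, chromosome 14, 118937976 to 118981697), a cochaperone that binds unfolded clients, stood at 148, 152 and 153 CPM in control and 132, 119 and 126 CPM in scaffold libraries. The groups did not overlap. The log2 fold change was -0.26 ± 0.05 (edgeR adjusted p = 0.0194), or 0.833-fold (95% interval 0.766 to 0.905). Its call was lost without control replicate 2 (adjusted p = 0.0913) or 3 (0.0893) and without scaffold replicate 2 (0.106) or 3 (0.0984), and with no filter on low counts (0.0564).

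Dnajc10 (ERdj5; ENSMUSG00000027006, chromosome 2, 80315466 to 80354043), a disulfide reductase that unties wrong bonds, went the other way. It stood at 158, 165 and 167 CPM in control and 201, 188 and 209 CPM in scaffold libraries, again without overlap. The log2 fold change was 0.29 ± 0.06 (edgeR adjusted p = 0.0153), or 1.22-fold (95% interval 1.12 to 1.33). Its call was lost without control replicate 2 (adjusted p = 0.0647) or 3 (0.0514) and without scaffold replicate 3 (0.0946).

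Dnajb11 (ERdj3), which binds nascent clients, stood at 61.2, 58.5 and 61.3 CPM in control and 61.3, 55.4 and 58.6 CPM in scaffold libraries, and the groups overlapped. Its log2 fold change was -0.05 ± 0.06 (edgeR adjusted p = 0.733). Of 4 further J-domain genes among the other secretory pathway genes, taken for the domain and not for a link to Hspa5, none passed edgeR's test. Their log2 fold changes were -0.10 (Dnajc1), -0.11 (Sec63), 0.11 (Dnajb12) and -0.17 (Dnajb14). At an unadjusted p under 0.05 the count was 1, Dnajb14, beside 18.1% of all tested genes.

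**Figure D3:**
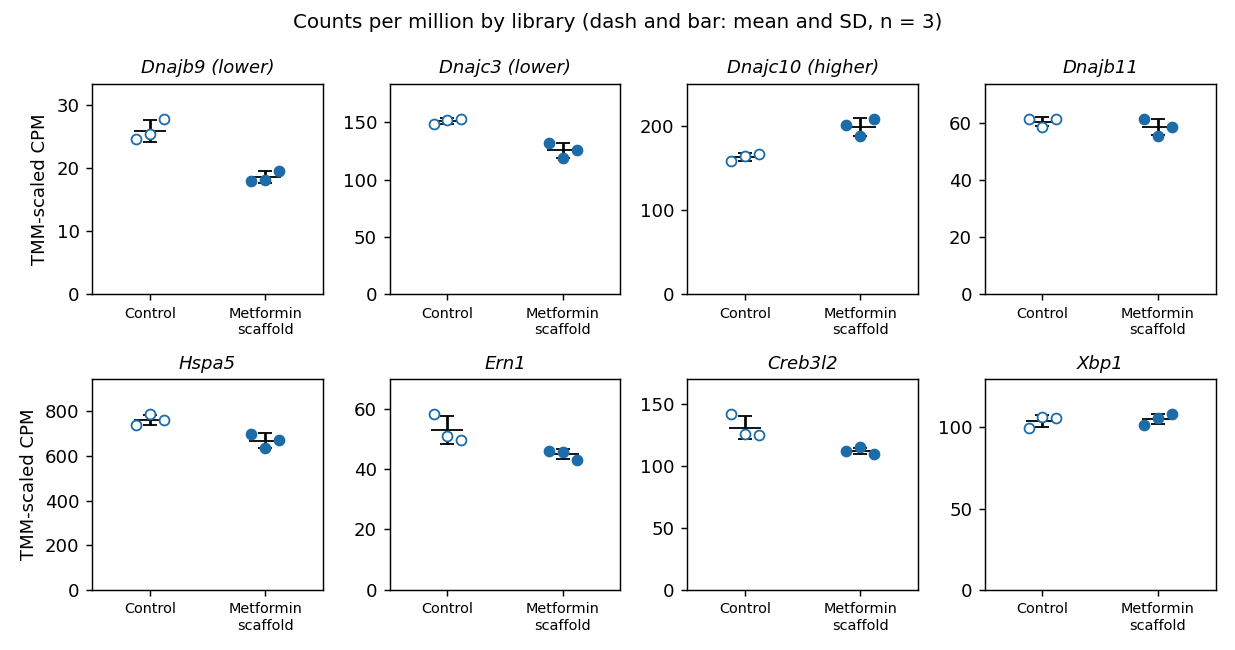
TMM-scaled CPM in each library for the 4 J-domain members, Hspa5, Ern1, Creb3l2 and Xbp1, with control libraries as open and metformin scaffold libraries as filled points; the dash and bar give the mean and SD of 3 libraries. Dnajb9 and Dnajc3 are lower and Dnajc10 higher in every scaffold library, Dnajb11 and Xbp1 overlap, and Hspa5, Ern1 and Creb3l2 are apart without passing edgeR's test.

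The remaining 13 folding genes, Dnajb11 among them, did not pass, and their log2 fold changes ran from -0.28 to 0.04. P4hb stood at 1204, 1168 and 1157 CPM in control and 1083, 1150 and 1106 CPM in scaffold libraries, with every scaffold value lower (log2 fold change -0.08 ± 0.05, edgeR adjusted p = 0.478). Pdia3, the isomerase that works with the lectins Calr and Canx, stood at 716, 722 and 723 CPM in control and 690, 744 and 780 CPM in scaffold libraries, where the scaffold values straddle the controls (0.04 ± 0.06, edgeR adjusted p = 0.814). The lectins themselves were close to each other in difference, Calr at -0.12 ± 0.06 and Canx at -0.12 ± 0.05, each with no overlap between groups. Hspa5 (BiP, the ER Hsp70 that also restrains the sensors; ENSMUSG00000026864, chromosome 2, 34771970 to 34777547) stood at 737, 786 and 761 CPM in control and 700, 636 and 670 CPM in scaffold libraries. Every scaffold library was below every control, and the log2 fold change was -0.19 ± 0.06 (edgeR adjusted p = 0.102). DESeq2 called it lower (adjusted p = 0.00750), while the adjusted p over all 14 alternatives reached 0.317.

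Hsp90b1 (GRP94), the ER Hsp90, had a log2 fold change of 0.03 ± 0.06, and the disulfide isomerases Pdia6 and Pdia4 stood at 0.0025 ± 0.06 and -0.0034 ± 0.07. Hyou1, the nucleotide exchange factor of Hspa5, was at -0.10 ± 0.06. The secreted products of ER stress, Manf and Creld2, were at -0.07 ± 0.07 and 0.04 ± 0.07. The widest interval belonged to Sdf2l1, a partner of Dnajb11 and the least abundant member. It stood at 5.46, 5.08 and 6.65 CPM in control and 4.74, 5.01 and 4.39 CPM in scaffold libraries, with no overlap, a difference of -0.28 ± 0.14 in log2 and a 95% interval from -0.60 to 0.03 (edgeR adjusted p = 0.336).

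None of the 5 degradation genes passed with edgeR, DESeq2 or limma, and 0 had an unadjusted p under 0.05 (18.1% of all tested genes had one). Selenos, a membrane anchor for the ATPase that extracts clients, was the most abundant at 40.4 FPKM. It stood at 66.3, 68.6 and 69.7 CPM in control and 66.8, 60.3 and 68.2 CPM in scaffold libraries, which overlapped (log2 fold change -0.07 ± 0.06, edgeR adjusted p = 0.615). Herpud1, a scaffold of the ubiquitin ligase complex, stood at 56.1, 57.9 and 55.7 CPM in control and 57.1, 59.8 and 57.6 CPM in scaffold libraries, also overlapping (0.04 ± 0.05, edgeR adjusted p = 0.747). Sel1l, the adaptor of the ligase, had log2 fold change -0.12 ± 0.06, and the ligase Syvn1 (HRD1) -0.06 ± 0.07. Edem1, which passes glycoproteins to the complex, had -0.06 ± 0.08. All 5 intervals lay within 1.3-fold in either direction.

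Of the 6 sensors and factors, none passed with edgeR or limma, and DESeq2 called 2 lower. At an unadjusted p under 0.05 by edgeR there were 3 (Creb3l2, Ern1 and Atf6), beside 18.1% of all tested genes. Xbp1 (ENSMUSG00000020484, chromosome 11, 5520659 to 5525893), the factor made by IRE1 splicing, stood at 99.8, 107 and 106 CPM in control and 102, 106 and 108 CPM in scaffold libraries. The groups overlapped, and the log2 fold change was 0.01 ± 0.05 with a 95% interval from -0.10 to 0.13 (edgeR adjusted p = 0.925). Ern1, the IRE1 sensor itself (ENSMUSG00000020715, chromosome 11, 106394650 to 106487852), stood at 58.2, 50.9 and 49.8 CPM in control and 46.1, 45.8 and 43.1 CPM in scaffold libraries. Every scaffold value was lower, the log2 difference being -0.23 ± 0.07 (edgeR adjusted p = 0.0927; DESeq2 adjusted p = 0.0379). Control replicate 1 was the highest of the 6.

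Atf6, the second sensor, stood at 77.8, 73.2 and 74.3 CPM in control and 79.9, 80.8 and 86.5 CPM in scaffold libraries. Every scaffold CPM value was higher, the log2 difference being 0.13 ± 0.05 (edgeR adjusted p = 0.215). As FPKM the groups overlapped, with control replicate 1 at 7.71 and scaffold replicate 1 at 7.65. Its relative Atf6b stood at 63.7, 67.9 and 75.9 CPM in control and 66.9, 72.5 and 73.8 CPM in scaffold libraries, which overlapped (0.04 ± 0.07, edgeR adjusted p = 0.831).

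The 2 related membrane-bound factors of skeletal cells pointed in opposite directions, and neither passed with edgeR. Creb3l1 (OASIS; ENSMUSG00000027230, chromosome 2, 91982328 to 92024502), which mouse osteoblasts need for normal type I collagen output, stood at 172, 144 and 144 CPM in control and 147, 179 and 174 CPM in scaffold libraries. Control replicate 1 and scaffold replicate 1 each lay with the other group (log2 fold change 0.12 ± 0.09, edgeR adjusted p = 0.524). Creb3l2 (BBF2H7; ENSMUSG00000038648, chromosome 6, 37327255 to 37442146), known for secretion by mouse chondrocytes, stood at 141, 125 and 125 CPM in control and 112, 115 and 110 CPM in scaffold libraries. The groups did not overlap, and the log2 fold change was -0.22 ± 0.06 (edgeR adjusted p = 0.0656). It was called lower by DESeq2 (adjusted p = 0.00917), with scaling by library totals alone (0.0387) and among genes of at least 5 FPKM (0.0417). Of the chondrocyte markers given above, Col2a1 and Hapln1 were higher in every scaffold library. Sox9 was lower in each, but barely, with a lowest control value of 25.5 FPKM and a highest scaffold value of 25.46. The part of these markers in the Creb3l2 difference was not tested.

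None of the 10 genes of entry, export and retrieval passed with edgeR, DESeq2 or limma. At an unadjusted p under 0.05 by edgeR there was 1, Kdelr3, beside 18.1% of all tested genes. Kdelr2 and Kdelr3 encode receptors that return escaped ER chaperones from the Golgi. Kdelr2 stood at 169, 180 and 175 CPM in control and 183, 190 and 191 CPM in scaffold libraries (log2 fold change 0.11 ± 0.05, edgeR adjusted p = 0.316). Kdelr3 stood at 97.2, 97.1 and 99.7 CPM in control and 106, 106 and 110 CPM in scaffold libraries (0.13 ± 0.05, edgeR adjusted p = 0.174). As CPM, both were higher in every scaffold library than in any control. As FPKM, Kdelr2 overlapped, with control replicate 2 at 88.7 and scaffold replicate 1 at 88.5.

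For the coat itself, all differences were small. Sar1a, the GTPase that starts COPII assembly, stood at 291, 303 and 304 CPM in control and 304, 285 and 291 CPM in scaffold libraries, which overlapped (log2 fold change -0.03 ± 0.05, edgeR adjusted p = 0.825), and its paralog Sar1b was at -0.02 ± 0.08. Reads of such paralogs could be split between them by the counting. The inner coat genes Sec23b and Sec24d had log2 fold changes of 0.04 ± 0.06 and 0.07 ± 0.06, and the outer coat gene Sec31a 0.04 ± 0.06. Mia3 (TANGO1), which loads procollagen into the carriers, was at 0.05 ± 0.06, with a 95% interval from -0.08 to 0.19. The translocon genes Sec61a1 and Sec61b were at -0.05 ± 0.05 and 0.03 ± 0.08. All 10 intervals lay within 1.3-fold in either direction.

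**Figure D4:**
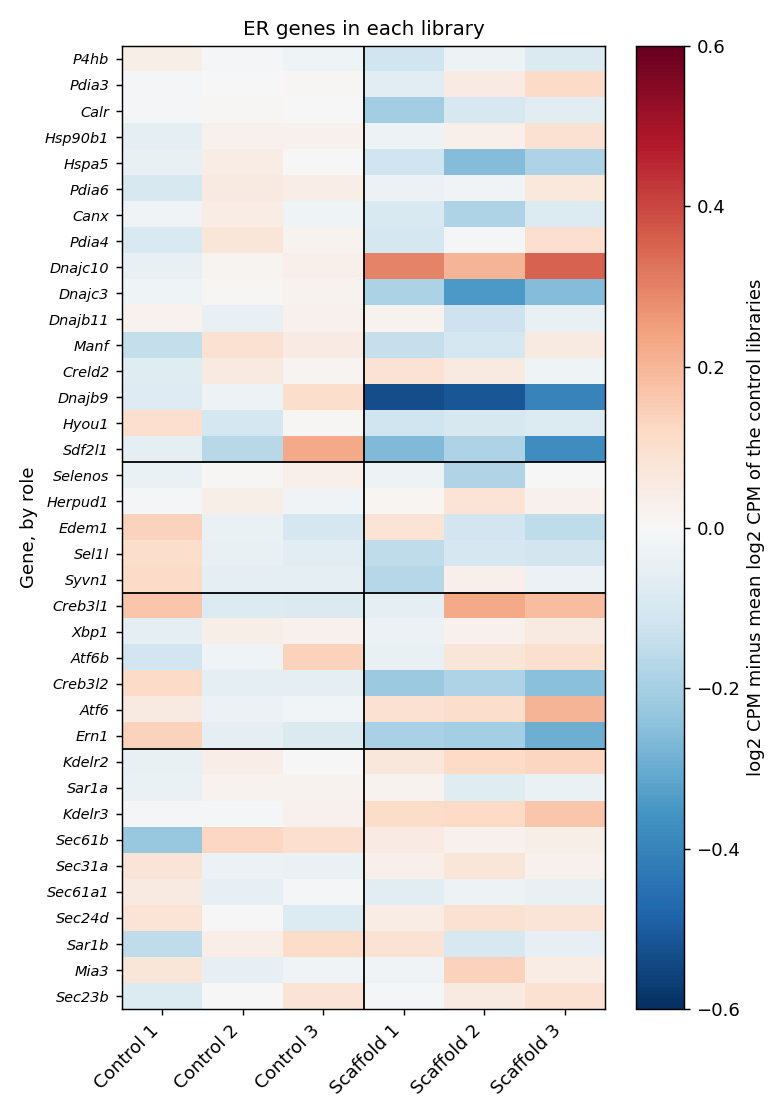
Each gene's log2 CPM in every library minus the mean log2 CPM of the 3 control libraries, as colour (blue lower, red higher), with genes in rows by role and libraries in columns. Dnajb9 and Dnajc3 are blue and Dnajc10 red in all 3 scaffold columns, and no role group has 1 colour throughout.

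Libraries differed among themselves across the ER genes. Control replicate 1 was the highest of the 6 libraries for 9 members and the lowest for 11, and scaffold replicate 3 was the highest for 10 and the lowest for 4. On principal components of log2(FPKM + 1), the score of control replicate 1 on the second axis (19.8% of the variance) was 11.9, against -3.36 and -7.20 for the other controls. Without it, the calls on Dnajb9, Dnajc3 and Dnajc10 remained. In Sec61b it was the low library, at 58.4 CPM against 69.6 to 74.6 CPM in the other 5.

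Other genes of the secretory pathway were taken from textbook lists, chosen with earlier results of these data known. Of 158 tested, 1 rose and 1 fell, where 2.85% of all tested genes rose and 1.46% fell. At an unadjusted p under 0.05 by edgeR there were 24 of the 158, beside 18.1% of all tested genes. The median log2 fold change of the 158 was 0.0025. In the glycosylation and entry list 1 of 33 rose, Ostc, a subunit of the oligosaccharyltransferase that attaches N-glycans. It stood at 61.2, 68.1 and 65.6 CPM in control and 80.3, 80.7 and 86.4 CPM in scaffold libraries, without overlap. The log2 fold change was 0.34 ± 0.06 (edgeR adjusted p = 0.00696), and the call was lost without scaffold replicate 3 (0.0530). In the degradation list 1 of 27 fell.

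In the other 4 lists no gene passed edgeR. Their counts at an unadjusted p under 0.05 stand beside 18.1% of all tested genes. For folding this was 0 of 36, with 6 at an unadjusted p under 0.05, 3 called higher by DESeq2 and 1 called lower by limma. Its smallest p belonged to Calu, a calcium-binding ER protein (0.19 ± 0.06, edgeR adjusted p = 0.0903). For sensors and factors it was 0 of 18, with 4 at an unadjusted p under 0.05, 1 called higher by DESeq2 and 0 by limma. Rtcb, the ligase that joins the Xbp1 exons after the IRE1 cut, had the smallest p (0.21 ± 0.06, edgeR adjusted p = 0.104). In the PERK arm, whose genes are named here after their values were seen, log2 fold changes were -0.09 ± 0.07 for the kinase gene Eif2ak3, -0.02 ± 0.06 for the factor Atf4 and -0.01 ± 0.06 for its target Ddit3 (CHOP). The targets Trib3 and Ppp1r15a stood at 0.41 ± 0.16 and 0.22 ± 0.08, each higher in every scaffold library (edgeR adjusted p = 0.186 and 0.177). Chac1, of the same list, stood at -0.09 ± 0.18, with overlapping groups (edgeR adjusted p = 0.846). Trib3 and Chac1 were low, at means of 1.67 and 1.76 FPKM. For COPII it was 0 of 29, with 3 at an unadjusted p under 0.05 and 0 by DESeq2 or limma, and for COPI and retrieval 0 of 15, with 3 at an unadjusted p under 0.05, 1 called higher by DESeq2 and 0 by limma. Their smallest p belonged to Tfg, an organiser of ER exit sites (0.17 ± 0.06, edgeR adjusted p = 0.166), and to Copg2, a coat subunit (-0.20 ± 0.07, edgeR adjusted p = 0.161). Copg2 went against its list, in which 12 of 15 genes were above 0 and the median log2 fold change was 0.09. Copb2 (0.16 ± 0.06) and Arcn1 (0.15 ± 0.05), also coat subunits, were its other genes at an unadjusted p under 0.05, named after their values were seen.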

How the data were processed

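The deposited table gives FPKM and estimated counts per gene for 6 libraries. The authors' FPKM, named per the file headers, is by definition relative to transcript length and depth. Estimated counts were deposited as whole numbers. Values at 4, 8 and 12 make up 31.8% to 33.6% of those from 1 to 12, and the cause is not known. How many counts stand for 1 read pair is therefore also not known, and the counts were not divided before testing. The submitters' processing notes list edgeR, DESeq2, StringTie, HISAT2, fastp and bcl2fastq 2.20, with no roles. A genome build was not given in the sources used here. Of the 37 members, 34 had the same start and end in GENCODE M21 (GRCm38); 9 share exon bases with another annotated gene, and whether counting used strand is not stated.

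Counts were rounded and tested with edgeR 4.0.16 (R 4.3.3): filterByExpr with a minimum count of 10, TMM, the two-sided quasi-likelihood test, and Benjamini-Hochberg adjustment over all 17375 tested genes at 0.05. A standard error is the log2 fold change over the square root of F, and intervals (95%) are per gene. All 37 members passed the filter. Alternatives were DESeq2 1.42.0, limma 3.58.1 on log2(FPKM + 1) and on log2(FPKM + 0.1) for genes with a mean of at least 1 FPKM, other scalings and filters, a replicate block and leaving out each library. The same edgeR steps were also run on simulated counts with planted fold changes, and the outcome is not given here. Those counts lack the excess of certain low values described above, so the run cannot speak to its effect. Every member is named. Members past the threshold, sensors and factors, and the 2 of highest FPKM in each role have every library's value; other lists name up to 3 genes past the threshold each way, or the 1 of smallest p. Members and lists were chosen with earlier results of these data known. Values of 1 gene outside the members are not reported here.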

Additional observations from a re-analysis of the deposited data

How the results depend on the processing

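Dnajb9 passed under all 14 alternatives, Dnajc10 under 11 and Dnajc3 under 9, each with its direction kept, and no value that passed under any setting changed sign. The members called were 1 higher and 5 lower with DESeq2 (Hspa5, Creb3l2 and Ern1 added; 3 folding genes and 2 sensors and factors), and 1 lower folding gene with no filter on low counts. Creb3l2 alone made 1 lower sensor or factor with library totals alone and with a floor of 5 FPKM on the mean, which left no value for Sdf2l1. Leaving out 1 library gave 0 to 1 higher and 1 to 2 lower members, all of them folding genes. Over all genes the calls were 833 higher and 477 lower with DESeq2, 429 and 380 with library totals alone, 317 and 115 with no filter, 311 and 256 with that floor, 328 and 259 with limma at a pseudocount of 1, 326 and 258 at 0.1, and from 234 to 610 higher and 89 to 358 lower when 1 library was left out, against 496 and 253. Among the other lists, DESeq2 called 3 folding genes, 1 sensor or factor, 3 entry and glycosylation genes and 1 COPI gene higher, and 2 entry and glycosylation genes lower. Limma called 1 folding gene lower at either pseudocount, and no filter left 0 degradation genes lower. RLE scaling gave 2 entry and glycosylation genes higher, and the 5 FPKM floor 2 higher and 1 lower. Leaving out 1 library gave 0 to 1 folding genes higher, 0 to 2 degradation genes lower, 0 to 2 entry and glycosylation genes higher and 0 to 2 lower, and 0 to 1 COPI genes lower. Causes were not tested. Whether same-numbered libraries share an origin is not stated. Correlations of their deviations from the group means were 0.018, 0.014 and 0.0019, against -0.021 to 0.010 for libraries of different number. Control replicate 3 correlated best with another number. With 3 libraries per group, whose deviations must sum to 0, these values cannot decide whether an origin was shared. With the replicate block, the calls were 460 higher and 191 lower over all genes, 1 higher and 2 lower among the members, and 2 higher among entry and glycosylation genes.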
